A study of Mus musculus with 14 samples.

Results

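Cells build cholesterol and fatty acids with enzymes that are controlled together, and 35 mouse genes of this system were followed here across 3 cultures of CD4 T cells. The genes were taken by name: every row of the count table whose gene identifier belongs to 1 of 35 listed symbols. All 35 were among the 27179 genes of the table, and all 35 passed the filter on low counts that left 13075 genes for testing. By role they are 5 regulators of the pathway, 7 enzymes of the mevalonate steps, 11 enzymes that make sterols from its products, 1 sterol carrier, 8 enzymes that make, lengthen or desaturate fatty acids, and 3 genes of sterol export and of the response to oxysterols.

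The RNA came from naive CD4 cells of C57BL/6 mice that were activated on plates coated with antibodies to CD3 and CD28. After 3.5 days of culture the cells were sorted, and libraries were made from 100 ng of RNA. Tfh5 libraries (n = 5) are from cells in a culture for follicular helper T cells with 5 ng/ml of TGF-β, TfhA libraries (n = 4, replicates 1, 2, 4 and 5) from the same kind of culture with an antibody to TGF-β, and Th1 libraries (n = 5) from a culture for type 1 helper T cells. The sources used here name neither the other cytokines and antibodies of each culture nor the sort gate. They also do not say whether libraries of a group are separate mice or separate wells, so the p-values below measure only the spread between these libraries. All are cultured cells, and no group of cells taken directly from a mouse is included.

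As background, the transcription factors SREBP-1 and SREBP-2 (genes Srebf1 and Srebf2) switch on most genes of sterol and fatty acid synthesis. They are made as membrane proteins of the endoplasmic reticulum, and the escort protein SCAP carries them to the Golgi for cutting when membrane sterol is low. INSIG proteins hold SCAP back when sterol is plentiful. Oxysterols, which are oxidised forms of cholesterol, activate the LXR receptors, whose targets include the exporters Abca1 and Abcg1 and the ubiquitin ligase Mylip. Activated T cells are known to raise lipid synthesis as they grow and divide.

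Levels are given in CPM, counts divided by library size and scaled between libraries by the TMM method of edgeR. A gene was called higher or lower where the adjusted p of edgeR's quasi-likelihood test, with Benjamini-Hochberg adjustment over all 13075 genes, was under 0.05. Library totals ran from 8805921 to 16108059 counts. Cd28, Cd5 and the other genes of a list of 8 T cell genes, Cd4 among them, had counts in every group. Their summed level was 6588 to 6967 CPM in Tfh5, 4754 to 5574 CPM in TfhA and 4349 to 4683 CPM in Th1. Of the 8, 5 were higher in Tfh5 than in TfhA, against 27.4% of all tested genes. In Tfh5 against Th1 7 were higher, against 31.5% of all tested genes. Bcl6 and Cxcr5, which mark follicular helper cells, averaged 104.9 and 79.2 CPM in Tfh5, 16.3 and 1.94 CPM in TfhA, and 12.3 and 1.77 CPM in Th1. For both genes the TfhA mean was near that of Th1. Il17a, the signature cytokine of Th17 cells, averaged 317 ± 48.0 CPM in Tfh5 (SD, n = 5), against 0.427 ± 0.209 CPM in TfhA (n = 4) and 0.235 ± 0.412 CPM in Th1 (n = 5).

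Most synthesis genes were lower in Tfh5 cells than in TfhA cells, and the 3 export and oxysterol-response genes were higher. In Tfh5 against TfhA, the test called 25 of the 35 genes lower and 3 higher, and left 7 uncalled. Over all tested genes 30.1% were lower and 27.4% higher in that comparison, 57.5% in all. The 26 enzymes gave 22 lower, 0 higher and 4 not passed. In 21 of the 35 genes every Tfh5 library was below every TfhA library, and in 3 every Tfh5 library was above, against 23.4% and 20.8% of all tested genes. The median log2 difference, Tfh5 minus TfhA, was -0.65 over the 35 genes and -0.01 over all tested genes. Differences of at least 2-fold were found in 10 lower and 2 higher genes, against 13.1% and 10.6% of all tested genes.

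Set against Th1 cells, Tfh5 cells again had lower levels of most of these genes. 23 of the 35 were lower, 3 were higher and 9 did not pass, beside 33% lower and 31.5% higher of all tested genes and 64.6% called in all. The median log2 difference, Tfh5 minus Th1, was -0.54, against -0.01 over all tested genes. At least 2-fold lower were 9 genes and 2-fold higher 2 (Abcg1 and Mylip), against 15.3% and 12.6% of all tested genes. In 22 of the 35 genes every Tfh5 library was below every Th1 library and in 3 above, against 26.5% and 23.7% of all tested genes. These values share the Tfh5 libraries with those of the preceding comparison. TfhA against Th1 was split: 8 genes were higher, 8 were lower and 19 did not pass, where 23.2% of all tested genes were higher, 21.6% were lower and 44.8% were called in all. The libraries of the groups did not overlap for 7 genes higher and 5 lower in TfhA, against 19.3% and 18.8% of all tested genes. The median log2 difference, TfhA minus Th1, was 0.02, against 0.03 over all tested genes. By mean level, Tfh5 was the lowest group for 30 of the 35 genes: TfhA was the highest group in 16 of those and Th1 in 14.

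**Figure D1:**
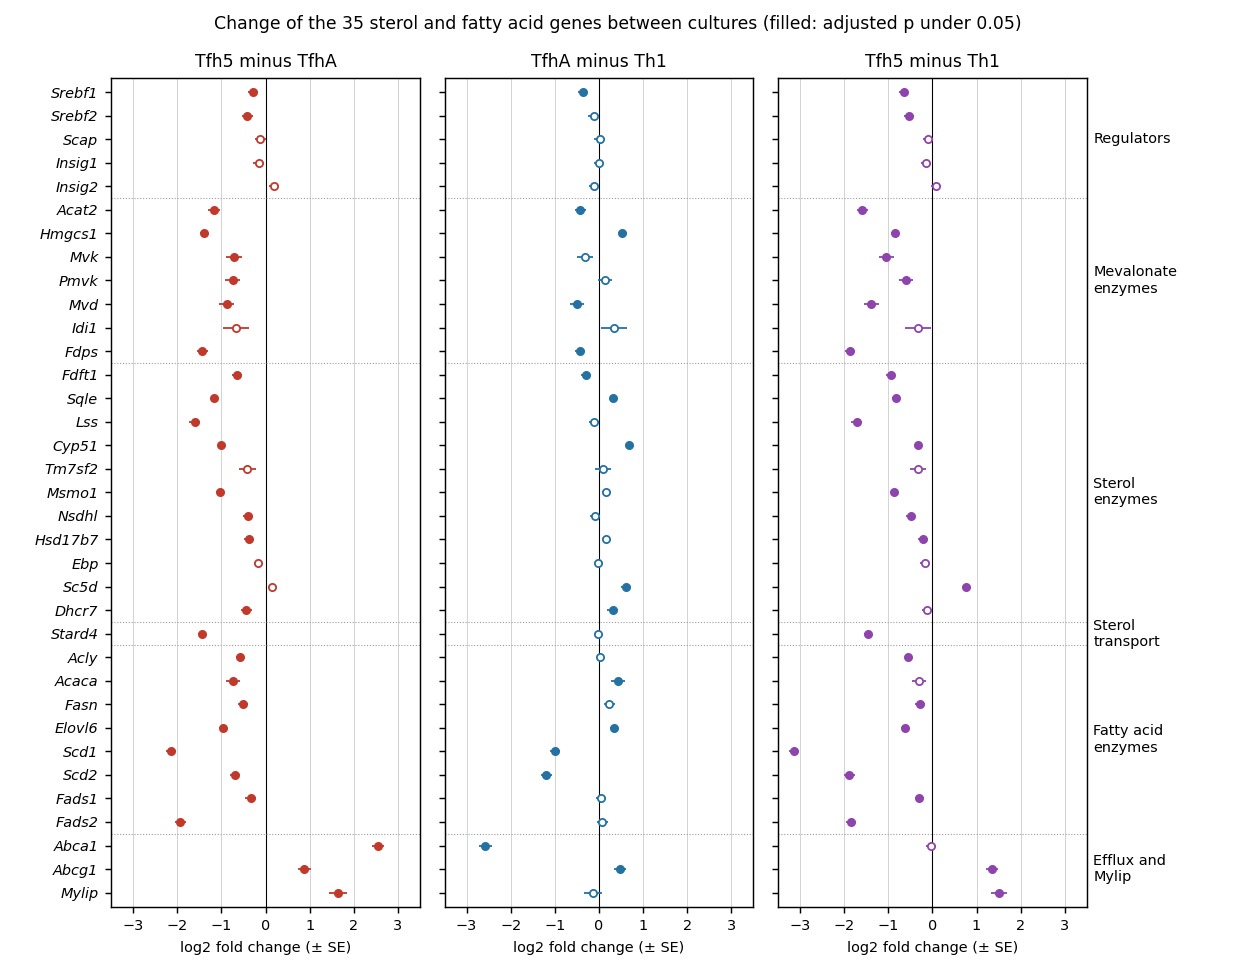
Log2 differences of the 35 genes, arranged by role, with the standard error of edgeR's fit, for Tfh5 against TfhA, TfhA against Th1 and Tfh5 against Th1; filled points passed the adjusted p of 0.05. In both comparisons of Tfh5 most enzymes lie below 0, from -2.14 for Scd1 against TfhA and -3.14 for Scd1 against Th1, while Abcg1 and Mylip lie above 0 in both.

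Summed levels per library also differed by role, given as a description with no test. The 7 mevalonate genes together held 167 ± 5.80 CPM in Tfh5, 399 ± 24.4 CPM in TfhA and 414 ± 16.1 CPM in Th1 (SD; n = 5, 4 and 5). The 11 sterol enzymes held 830 ± 34.3 CPM in Tfh5, 1285 ± 52.1 CPM in TfhA and 1058 ± 16.5 CPM in Th1, so that here TfhA was the highest group. For the 8 fatty acid enzymes the order differed again, with 919 ± 104 CPM in Tfh5, 1564 ± 112 CPM in TfhA and 2435 ± 158 CPM in Th1. Most of the gap between TfhA and Th1 in that sum lay in Scd2: without it, the log2 ratio of TfhA to Th1 was -0.02, against -0.64 with it. Fewer cells that express these genes and less of their RNA per cell cannot be told apart in bulk RNA.

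**Figure D2:**
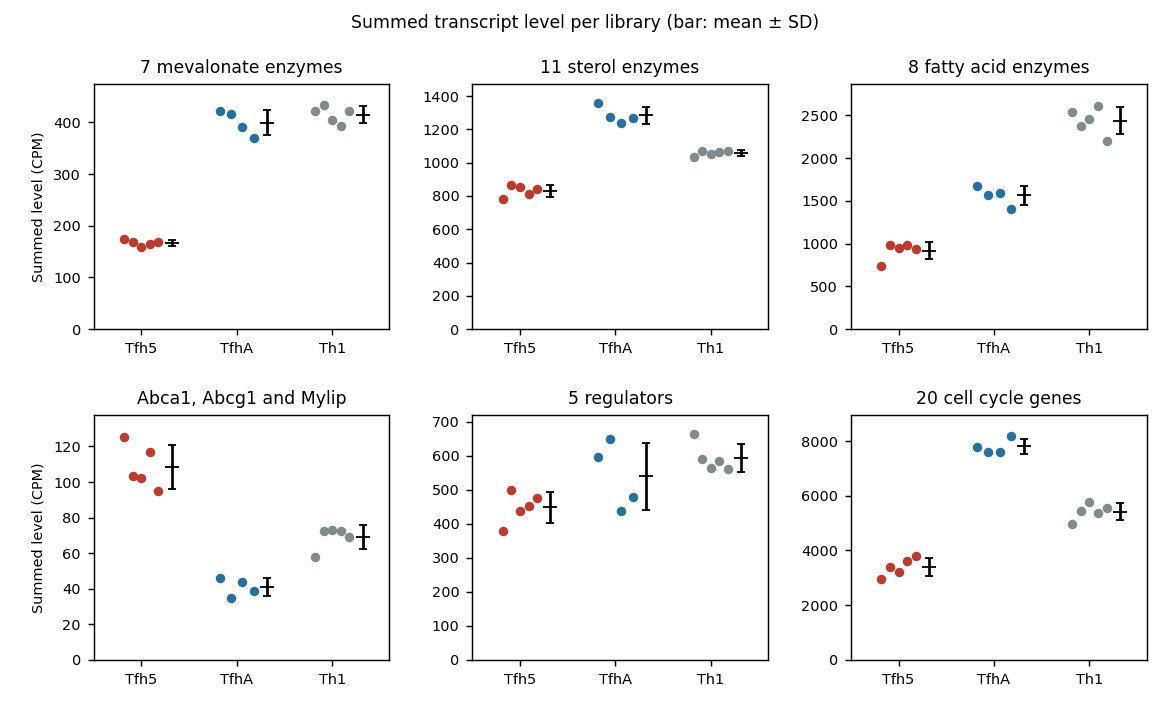
Summed CPM in every library of Tfh5, TfhA and Th1 for 5 role groups and for the 20 cell cycle genes described at the end; each point is 1 library, the bar is the group mean and the error bar the SD. The mevalonate sum lies between 158 and 174 CPM in Tfh5, below all TfhA libraries (369 to 422 CPM) and all Th1 libraries (392.2 to 433 CPM), and the sum of the 3 export and oxysterol-response genes lies highest in Tfh5 (94.9 to 125 CPM).

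Among the 5 regulators, the 2 SREBP genes were lower in Tfh5, and the genes for their escort and its anchors did not pass the test in any comparison. Of all tested genes, 30.1% were lower in Tfh5 than in TfhA and 33% were lower in Tfh5 than in Th1. The Srebf1 levels were 69.5, 82.6, 69.8, 79.6 and 76.8 CPM in the Tfh5 libraries, 102, 106, 76.3 and 82.6 CPM in the TfhA libraries and 144, 119, 109.6, 115 and 106 CPM in the Th1 libraries. Th1 was higher than Tfh5 in every library, while the TfhA libraries spread across the gap, replicates 4 and 5 near Tfh5 and replicates 1 and 2 near Th1. The log2 difference of Srebf1, Tfh5 minus TfhA, was -0.28 ± 0.11 (SE; adjusted p = 0.0332). Leaving out Tfh5 replicate 1 or 3 or TfhA replicate 1 or 2 ended this call: the difference was then -0.20 to -0.25 and adjusted p 0.0681 to 0.154. A replicate block also ended it (adjusted p = 0.0722). Against Th1, Srebf1 was 1.57-fold lower in Tfh5 (adjusted p = 6.69e-06) and 1.29-fold lower in TfhA (adjusted p = 0.00826).

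In Tfh5 libraries Srebf2 reached 169, 228, 200.4, 197 and 226 CPM, in TfhA libraries 298, 344, 213 and 229 CPM and in Th1 libraries 327, 296, 282, 293 and 279.9 CPM. As with Srebf1, TfhA replicates 1 and 2 were the high ones of their group, and the TfhA range overlapped both other groups. Srebf2, the main activator of sterol synthesis, was 1.33-fold lower in Tfh5 than in TfhA (adjusted p = 0.00456) and 1.45-fold lower than in Th1 (adjusted p = 0.000198), and TfhA against Th1 did not pass (adjusted p = 0.422). Scap averaged 62.8 ± 7.13 CPM in Tfh5, 68.1 ± 15.2 CPM in TfhA and 67.4 ± 8.44 CPM in Th1, and 18.6% of its exon length is shared with the transcript 5830462I19Rik on the other strand. Insig1, itself a known SREBP target, averaged 66.5 ± 10.5 CPM in Tfh5, 74.1 ± 10.4 CPM in TfhA and 74.1 ± 4.31 CPM in Th1. Insig2 averaged 39.4 ± 3.87 CPM in Tfh5, 34.3 ± 4.35 CPM in TfhA and 37.2 ± 2.8 CPM in Th1. The ranges of all 3 overlapped between groups. Insig2 passed against TfhA only without TfhA replicate 5, with a log2 difference, Tfh5 minus TfhA, of 0.29 (adjusted p = 0.0412).

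In the mevalonate steps, which turn acetyl-CoA into the isoprenoid units of cholesterol, 6 of 7 genes were lower in Tfh5 than in TfhA, 0 were higher and 1 did not pass. The same count held against Th1, with 6 lower and 1 not passed. Over all tested genes 30.1% were lower in Tfh5 than in TfhA and 33% were lower in Tfh5 than in Th1. Hmgcs1 stood at 57.9, 71.9, 59.4, 69.2 and 71.9 CPM in Tfh5, at 174, 175, 165 and 177 CPM in TfhA and at 109, 131, 118, 128 and 111 CPM in Th1. Hmgcs1 makes HMG-CoA, from which mevalonate is formed, and its 3 groups did not overlap: TfhA was highest, Th1 intermediate and Tfh5 lowest. It was 2.61-fold lower in Tfh5 than in TfhA (log2 difference -1.39 ± 0.09, adjusted p = 3.73e-12) and 1.81-fold lower than in Th1 (adjusted p = 6.83e-09). TfhA was 1.45-fold higher than Th1 (adjusted p = 4.06e-05). Hmgcs1 lies on chromosome 13 (119690351 to 119708260, mm10), and 16% of its exon length is shared with the antisense gene Gm48342 on the other strand.

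The Fdps levels were 45.1, 45.04, 49.98, 40.2 and 33.6 CPM in the Tfh5 libraries, 129.7, 129, 115 and 87.8 CPM in the TfhA libraries and 149.7, 161, 160.5, 136 and 169.7 CPM in the Th1 libraries. Here too the groups were apart in every library, but Th1 was highest. Fdps makes farnesyl diphosphate, from which both sterols and protein prenyl groups are made. It was 2.7-fold lower in Tfh5 than in TfhA (adjusted p = 2.15e-10), 1.35-fold lower in TfhA than in Th1 (adjusted p = 0.00438) and 3.63-fold lower in Tfh5 than in Th1 (adjusted p = 4.16e-13). The value is uncertain, because 77.4% of its exon length is shared with the gene Gm43738 on the same strand and how shared reads were counted is not stated.

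Acat2, the cytosolic thiolase that joins acetyl-CoA units, followed the order of Fdps. In Tfh5 libraries Acat2 reached 30.6, 20.6, 21.97, 15.6 and 20.5 CPM, in TfhA libraries 50.9, 47.8, 48.9 and 48.5 CPM and in Th1 libraries 66.4, 65.8, 59.99, 65.2 and 71.8 CPM. The widest spread was in Tfh5, whose highest library was still below every TfhA library. Acat2 was 2.24-fold lower in Tfh5 than in TfhA (adjusted p = 3.89e-08) and 1.34-fold lower in TfhA than in Th1 (adjusted p = 0.0087). Mvk and Pmvk, the kinases that phosphorylate mevalonate in turn, were 1.64-fold and 1.68-fold lower in Tfh5 than in TfhA, at means of 6.40 and 8.45 CPM in Tfh5 against 10.5 and 14.2 CPM in TfhA. Mvd, the decarboxylase of the next step, averaged 15.7 ± 3.52 CPM in Tfh5, 28.8 ± 4.49 CPM in TfhA and 40.9 ± 9.83 CPM in Th1. The isomerase gene Idi1 was the one that did not pass. Idi1 stood at 3.996, 3.97, 2.55, 8.25 and 8.89 CPM in Tfh5, at 7.19, 7.25, 9.41 and 11.9 CPM in TfhA and at 4.67, 9.49, 10.05, 5.27 and 5.71 CPM in Th1. Its libraries overlapped between all 3 groups. Its log2 difference, Tfh5 minus TfhA, was -0.67 ± 0.31 (adjusted p = 0.0645), and it passed without Tfh5 replicate 4 (-0.84, adjusted p = 0.028), without Tfh5 replicate 5 (-0.92, adjusted p = 0.0153) or with no filter on low counts (-0.66, adjusted p = 0.0277).

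**Figure D3:**
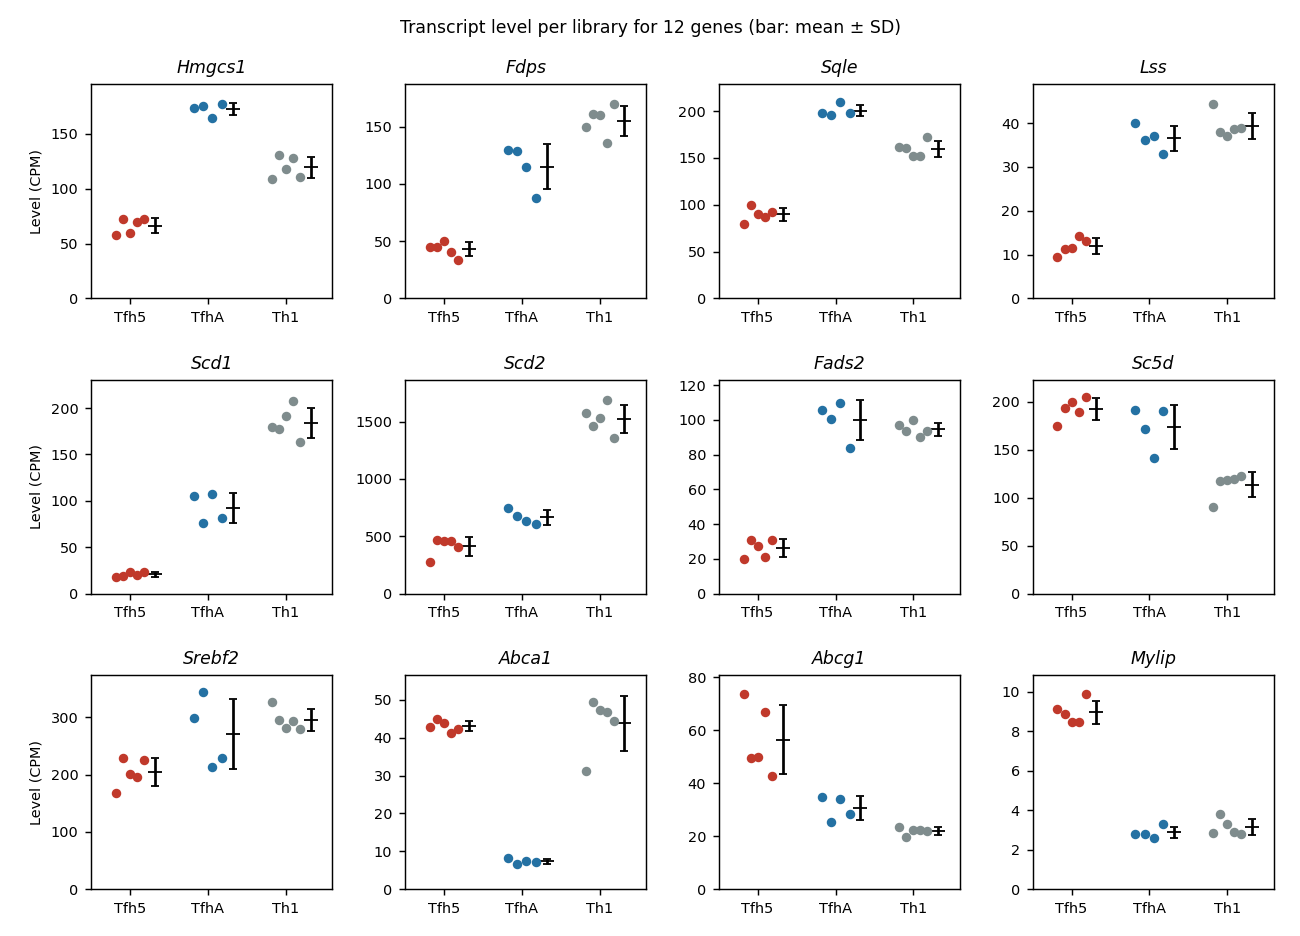
CPM in every library of Tfh5, TfhA and Th1 for 12 of the genes, with the group mean and SD; each panel has its own linear axis from 0. Hmgcs1 and Sqle are highest in TfhA, Scd1 and Scd2 are highest in Th1, and Abca1 is low in the 4 TfhA libraries only (6.56 to 8.25 CPM).

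The sterol steps run from the joining of farnesyl units to cholesterol itself. Of the 11 enzymes, 8 were lower in Tfh5 than in TfhA, 0 were higher and 3 did not pass (Tm7sf2, Ebp and Sc5d). Against Th1, 7 were lower in Tfh5, 1 was higher and 3 did not pass. TfhA against Th1 gave 4 higher, 1 lower and 6 not passed. Over all tested genes 30.1% were lower and 27.4% higher in Tfh5 against TfhA. The shares were 33% lower and 31.5% higher in Tfh5 against Th1, and 21.6% lower and 23.2% higher in TfhA against Th1. The Sqle levels were 79.5, 99.7, 90.2, 86.5 and 92.1 CPM in the Tfh5 libraries, 198, 196, 209 and 198 CPM in the TfhA libraries and 161, 161, 152, 152 and 172 CPM in the Th1 libraries. Sqle, the squalene epoxidase that is a rate-limiting step after the mevalonate steps, had 3 groups apart, with TfhA highest. It was 2.24-fold lower in Tfh5 than in TfhA (adjusted p = 1.68e-11), 1.26-fold higher in TfhA than in Th1 (adjusted p = 0.00247) and 1.78-fold lower in Tfh5 than in Th1 (adjusted p = 1.96e-09).

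In Tfh5 libraries Lss reached 9.52, 11.2, 11.5, 14.3 and 13.1 CPM, in TfhA libraries 40.05, 36.1, 36.99 and 32.9 CPM and in Th1 libraries 44.4, 37.9, 37.02, 38.6 and 38.9 CPM. Tfh5 was below both other groups in every library, and the TfhA and Th1 libraries overlapped. Lss closes the ring of lanosterol, and it had the largest difference of the sterol enzymes between Tfh5 and TfhA: 3.05-fold lower in Tfh5 (log2 difference -1.61 ± 0.12, adjusted p = 4.54e-11). Against Th1 it was 3.29-fold lower in Tfh5 (adjusted p = 3.24e-12), and TfhA against Th1 did not pass (adjusted p = 0.479). On the other strand, 8.16% of its exon length is shared with an antisense gene.

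Cyp51 stood at 149, 158, 136, 146 and 158 CPM in Tfh5, at 302, 303, 304 and 287 CPM in TfhA and at 174, 193, 189, 179 and 194 CPM in Th1. The lanosterol demethylase gene Cyp51 had its TfhA libraries far above those of Th1, and Tfh5 below both. TfhA was 1.61-fold higher than Th1 (adjusted p = 1.53e-07), the largest difference of a sterol enzyme in that comparison, and Tfh5 was 2.003-fold lower than TfhA (adjusted p = 9.36e-11). Msmo1, which removes methyl groups at the next stage, was 2.04-fold lower in Tfh5 than in TfhA, at 95.9 ± 12.2 CPM in Tfh5, 196 ± 8.85 CPM in TfhA and 176 ± 11.4 CPM in Th1. Fdft1, Nsdhl, Hsd17b7 and Dhcr7, which make squalene, remove a carboxyl group, reduce a ketone and reduce a late double bond, were lower in Tfh5 than in TfhA by 1.57-fold, 1.31-fold, 1.31-fold and 1.35-fold. In Fdft1 20.9% of exon length is shared with Ctsb, on the opposite strand.

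Sc5d, the sterol desaturase of a late step, moved against its group. The Sc5d levels were 175, 194, 200.2, 189.9 and 205 CPM in the Tfh5 libraries, 192, 172, 141 and 190.2 CPM in the TfhA libraries and 90.03, 117, 119, 120.0 and 123 CPM in the Th1 libraries. Both Tfh cultures were above Th1 in every library and overlapped each other. Sc5d was 1.70-fold higher in Tfh5 than in Th1 (log2 difference 0.76 ± 0.10, adjusted p = 2.61e-07) and 1.53-fold higher in TfhA than in Th1 (adjusted p = 3.26e-05). Tfh5 against TfhA did not pass (log2 difference 0.15 ± 0.10, adjusted p = 0.224). Tm7sf2 and Ebp did not pass in any comparison; Tm7sf2 passed in both comparisons of Tfh5 when Tfh5 replicate 3 was left out (-0.52 against TfhA, adjusted p = 0.0265, and -0.44 against Th1, adjusted p = 0.0425), and Ebp against TfhA when TfhA replicate 5 was left out (-0.24, adjusted p = 0.0487).

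The sterol carrier Stard4 moves cholesterol between membranes and is a known SREBP target. In Tfh5 libraries Stard4 reached 38.9, 51.1, 40.5, 39.3 and 38.5 CPM, in TfhA libraries 119.8, 115, 107 and 109 CPM and in Th1 libraries 111, 109.9, 112, 121 and 121 CPM. Every Tfh5 library was far below the TfhA and Th1 libraries, which overlapped. Stard4 was 2.71-fold lower in Tfh5 than in TfhA (adjusted p = 2.69e-12) and 2.76-fold lower than in Th1 (adjusted p = 4.15e-13).

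Sequences before the start of 4 of these genes are shown because sterol-regulated promoters often pair the SREBP element with a CCAAT box, and the 4 differ in how their RNA moved. Hmgcs1 and Msmo1 were lower in Tfh5 than in both other groups, Idi1 did not pass, and Sc5d was higher in Tfh5 than in Th1. They are the 250 bases before the RefSeq start (GRCm38.p6), 5′ to 3′ on the gene's strand: Hmgcs1 at chr13:119690101-119690350 (+), Msmo1 at chr8:64733579-64733828 (-), Idi1 at chr13:8885356-8885605 (+) and Sc5d at chr9:42264301-42264550 (-). Capitals mark matches to TCACNCCAC, a form of the SREBP element, and to CCAAT, which reads ATTGG on the other strand.
Hmgcs1: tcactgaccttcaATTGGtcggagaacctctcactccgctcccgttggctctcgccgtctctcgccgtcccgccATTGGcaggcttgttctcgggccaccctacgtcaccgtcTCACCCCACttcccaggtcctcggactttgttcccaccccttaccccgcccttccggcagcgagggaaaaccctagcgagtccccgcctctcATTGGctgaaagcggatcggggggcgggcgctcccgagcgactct
Msmo1: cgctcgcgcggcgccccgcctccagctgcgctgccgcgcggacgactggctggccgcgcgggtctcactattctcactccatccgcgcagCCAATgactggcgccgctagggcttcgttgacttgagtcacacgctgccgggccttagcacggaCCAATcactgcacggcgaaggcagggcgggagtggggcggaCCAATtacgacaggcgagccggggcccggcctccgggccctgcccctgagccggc
Idi1: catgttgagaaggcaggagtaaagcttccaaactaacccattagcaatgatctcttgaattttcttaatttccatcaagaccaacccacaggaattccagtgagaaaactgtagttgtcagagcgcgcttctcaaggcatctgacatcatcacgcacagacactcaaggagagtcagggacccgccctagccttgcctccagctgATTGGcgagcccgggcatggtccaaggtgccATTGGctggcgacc
Sc5d: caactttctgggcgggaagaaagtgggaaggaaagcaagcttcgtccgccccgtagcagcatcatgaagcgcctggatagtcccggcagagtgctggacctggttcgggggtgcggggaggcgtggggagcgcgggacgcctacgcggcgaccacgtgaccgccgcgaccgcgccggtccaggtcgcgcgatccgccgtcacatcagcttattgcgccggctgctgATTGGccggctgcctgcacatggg

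Of the 35 genes, 27 had such a window, 5 of them more than 1. The 8 without a window were Fads1, Fdps, Stard4, Scd1, Fdft1, Sqle, Abcg1 and Scd2. TCACNCCAC, searched on both strands, was found in 1 of the 27 (Hmgcs1, as TCACCCCAC at bases 129 to 137 before the start), against 1.22% of 27025 genes with a window. CCAAT was found in 20 of the 27 (74.1%), against 37.5% of all genes with a window and 40.8% of the 9911 of them that were tested. It was in 9 of 9 sterol enzymes, 5 of 6 mevalonate genes and 4 of 5 regulators, but in 1 of 5 fatty acid genes and 1 of 2 of the export and oxysterol-response genes. Hmgcs1 and Msmo1 hold 3 CCAAT matches each, Idi1 holds 2 and Sc5d 1. Any relation of the box to the RNA differences was not tested. These matches describe letters and not bound sites, and other forms of the SREBP element were not searched.

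All 8 fatty acid genes were lower in Tfh5 than in TfhA, with no Tfh5 library reaching a TfhA library in any of them. Over all tested genes 30.1% were lower in that comparison, and 23.4% were lower without overlap. Against Th1, 7 were lower in Tfh5 and 1 did not pass (Acaca, adjusted p = 0.0801), beside 33% lower of all tested genes. TfhA against Th1 gave 2 higher, 2 lower and 4 not passed, near the 23.2% higher and 21.6% lower of all tested genes. The desaturase genes Scd1 and Fads2 had the largest differences of the 8 in Tfh5 against TfhA. Scd1 stood at 18.1, 19.1, 23.95, 20.4 and 23 CPM in Tfh5, at 105, 76.04, 108 and 81.1 CPM in TfhA and at 179.5, 177, 191, 208 and 164 CPM in Th1. The 3 groups were apart, with Tfh5 lowest and Th1 highest. Scd1, which puts the first double bond into saturated fatty acids, was 4.42-fold lower in Tfh5 than in TfhA (log2 difference -2.14 ± 0.12, adjusted p = 9.35e-14), 1.99-fold lower in TfhA than in Th1 (adjusted p = 1.28e-07) and 8.79-fold lower in Tfh5 than in Th1 (log2 difference -3.14 ± 0.12, adjusted p = 1.62e-17).

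The Scd2 levels were 275, 472, 456, 459 and 403 CPM in the Tfh5 libraries, 749.7, 674, 634 and 605 CPM in the TfhA libraries and 1576, 1462, 1534, 1688 and 1354 CPM in the Th1 libraries. Scd2 encodes a second desaturase of the same kind, and it kept the same order with much higher counts in every group. It was 1.61-fold lower in Tfh5 than in TfhA (adjusted p = 2.91e-05), 2.29-fold lower in TfhA than in Th1 (adjusted p = 2.68e-08) and 3.69-fold lower in Tfh5 than in Th1 (adjusted p = 5.33e-13). Both genes lie on chromosome 19 (mm10), Scd1 from 44394450 to 44407709 and Scd2 from 44293676 to 44306864. Per kilobase of exon, the level of Scd2 was 17.5 ± 3.39 times that of Scd1 in Tfh5, 6.49 ± 1.09 times in TfhA and 7.34 ± 0.259 times in Th1 (SD; n = 5, 4 and 5), a description with no test. Their sequences are alike, so reads may be split between them uncertainly.

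In Tfh5 libraries Fads2 reached 20.2, 31.1, 27.7, 21.1 and 31.1 CPM, in TfhA libraries 106, 101, 109.8 and 83.7 CPM and in Th1 libraries 96.8, 93.3, 99.7, 89.8 and 93.8 CPM. Tfh5 was below both other groups in every library, and TfhA and Th1 overlapped. Fads2, the desaturase that opens the path to long polyunsaturated fatty acids, was 3.81-fold lower in Tfh5 than in TfhA (adjusted p = 1.18e-12) and 3.61-fold lower than in Th1 (adjusted p = 6.14e-13). Its neighbour Fads1, which acts later in the same path, differed less, at 44.04 ± 5.08 CPM in Tfh5, 55.6 ± 7.11 CPM in TfhA and 54.1 ± 6.49 CPM in Th1 (1.26-fold lower in Tfh5 than in TfhA, adjusted p = 0.0154). That call was lost without TfhA replicate 2 (-0.24, adjusted p = 0.0944), and the one against Th1 (-0.30, adjusted p = 0.0204) without Tfh5 replicate 1 (-0.23, 0.0631), Th1 replicate 1 (-0.23, 0.0643) or Th1 replicate 2 (-0.27, 0.0511). Per kilobase of exon, the level of Fads1 was 1.56 ± 0.279 times that of Fads2 in Tfh5, against 0.510 ± 0.0757 times in TfhA and 0.519 ± 0.0575 times in Th1.

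The enzymes that supply and build the chain differed by 1.43-fold to 1.95-fold between Tfh5 and TfhA, less than Scd1 and Fads2 and more than Fads1. Acly, which makes cytosolic acetyl-CoA from citrate, was 1.495-fold lower in Tfh5 than in TfhA, at 202 ± 10.9 CPM in Tfh5 and 302 ± 25.05 CPM in TfhA. Acaca, the carboxylase that commits acetyl-CoA to fatty acids, was 1.66-fold lower, Fasn, the fatty acid synthase, 1.43-fold lower and Elovl6, which lengthens palmitate, 1.95-fold lower. Elovl6 had the largest difference of these and 3 groups that did not overlap, at 78.4 ± 5.11 CPM in Tfh5, 153 ± 14.4 CPM in TfhA and 121 ± 9.39 CPM in Th1. Against Th1, Fasn was 1.21-fold lower in Tfh5 (adjusted p = 0.0352), a call lost without Tfh5 replicate 1, 2 or 3 or Th1 replicate 1 or 3 (adjusted p 0.0504 to 0.113, log2 differences -0.18 to -0.28). It was also lost with the replicate block (adjusted p = 0.0543), library totals alone (0.0562) and 2 groups alone (0.0548). Hsd17b7 of the sterol steps (-0.22 against Th1, adjusted p = 0.042) lost its call without Tfh5 replicate 1, 3 or 5 or Th1 replicate 2, 3 or 4 (adjusted p 0.0529 to 0.117, log2 differences -0.17 to -0.23). The replicate block (adjusted p = 0.0619), library totals alone (0.0643), no filter (0.0511) and 2 groups alone (0.0661) ended it as well.

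The 3 genes of sterol export and oxysterol response were all higher in Tfh5 than in TfhA, against 27.4% of all tested genes. Abca1 stood at 42.7, 45.04, 43.8, 41.4 and 42.3 CPM in Tfh5, at 8.25, 6.56, 7.36 and 7.11 CPM in TfhA and at 31.2, 49.3, 47.4, 46.9 and 44.4 CPM in Th1. Abca1, which exports cholesterol to apolipoprotein A1, was low in the TfhA libraries alone, and the Tfh5 and Th1 libraries overlapped. It was 5.86-fold higher in Tfh5 than in TfhA (log2 difference 2.55 ± 0.14, adjusted p = 8.66e-14) and 5.96-fold lower in TfhA than in Th1 (log2 difference -2.58 ± 0.14, adjusted p = 2.26e-13), the largest difference of the 35 genes in each of these comparisons. Tfh5 against Th1 was -0.02 ± 0.11 on the log2 scale (adjusted p = 0.86). The gene lies on chromosome 4 (53030789 to 53159988, mm10).

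The Abcg1 levels were 73.6, 49.4, 49.98, 66.9 and 42.7 CPM in the Tfh5 libraries, 34.9, 25.5, 33.97 and 28.3 CPM in the TfhA libraries and 23.6, 19.5, 22.5, 22.5 and 22.1 CPM in the Th1 libraries. Its 3 groups were apart, with Tfh5 highest and Th1 lowest, unlike Abca1. Abcg1 exports cholesterol to lipoprotein particles, and it was 1.84-fold higher in Tfh5 than in TfhA (adjusted p = 1.15e-05), 1.39-fold higher in TfhA than in Th1 (adjusted p = 0.00936) and 2.56-fold higher in Tfh5 than in Th1 (adjusted p = 3.67e-09). In Tfh5 libraries Mylip reached 9.13, 8.87, 8.49, 8.44 and 9.86 CPM, in TfhA libraries 2.801, 2.81, 2.596 and 3.29 CPM and in Th1 libraries 2.87, 3.81, 3.32, 2.91 and 2.82 CPM. Mylip marks lipoprotein receptors for degradation, and its Tfh5 libraries lay above both other groups, which overlapped at low levels. It was 3.11-fold higher in Tfh5 than in TfhA (adjusted p = 2.26e-07) and 2.84-fold higher than in Th1 (adjusted p = 1.1e-07).

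The 8 higher and 8 lower genes of TfhA against Th1 are near the background of 23.2% higher and 21.6% lower over all tested genes, and are named here as a description. The 8 higher in TfhA were Hmgcs1, Sqle, Cyp51, Sc5d, Dhcr7, Acaca, Elovl6 and Abcg1, and the 8 lower were Srebf1, Acat2, Mvd, Fdps, Fdft1, Scd1, Scd2 and Abca1. Scd2 and Abca1 were the ones past 2-fold, both lower in TfhA, where 8.29% of all tested genes were called lower and 5.37% higher past 2-fold. Dhcr7 (log2 difference, TfhA minus Th1, 0.32, adjusted p = 0.0452) lost its call in 10 of the 14 fits that left out 1 library, those without Tfh5 replicate 2, 3 or 4, TfhA replicate 1, 2 or 5 or Th1 replicate 2, 3, 4 or 5 (0.21 to 0.34, adjusted p 0.0507 to 0.215). It also lost it with DESeq2 (adjusted p = 0.0619), RLE factors (0.0543), upper-quartile factors (0.0687), no filter (0.0709), 2 groups alone (0.0798) and the replicate block (0.0757). Acaca (0.43, adjusted p = 0.0289) lost its call without TfhA replicate 2 or 4 or Th1 replicate 1, 4 or 5 (0.28 to 0.40, adjusted p 0.0534 to 0.165) and with no filter on low counts (adjusted p = 0.0515). Mvd (-0.50, adjusted p = 0.0175) lost its call without TfhA replicate 5 (-0.43, adjusted p = 0.0626) or Th1 replicate 1 (-0.36, adjusted p = 0.0685), and so did Fdft1 (-0.30, adjusted p = 0.0205) without TfhA replicate 5 (-0.23, adjusted p = 0.0886) or Th1 replicate 1 (-0.25, adjusted p = 0.0507) or with library totals alone (-0.24, adjusted p = 0.0607). Fasn passed as higher in TfhA without Th1 replicate 1 (0.29, adjusted p = 0.0483) and with library totals alone (0.29, adjusted p = 0.0452).

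Other genes of the pathway were counted in 6 lists of 84 genes, of which 77 were tested. In Tfh5 against TfhA 24 were higher, 26 were lower and 27 did not pass, beside 27.4% higher and 30.1% lower of all tested genes. Among 12 further sterol genes 9 were lower, 1 was higher and 2 did not pass. The sterol reductase and lamina protein gene Lbr was among the lower ones, at 148 CPM in Tfh5, 265 CPM in TfhA and 175 CPM in Th1 (1.79-fold lower in Tfh5 than in TfhA, adjusted p = 4.07e-08). In the list of 11 genes for SREBP processing and sterol sensing, 4 were higher, 4 were lower and 3 did not pass. Tmem97, a known sterol-regulated gene, was 2.99-fold lower in Tfh5 (11.1 CPM) than in TfhA (33.3 CPM; adjusted p = 1.71e-11), and Mbtps2, the second protease that frees SREBPs, was 1.49-fold higher (75.9 CPM in Tfh5 against 50.8 CPM in TfhA; adjusted p = 0.00119).

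The list of sterol storage and transport held 12 tested genes, 5 higher and 4 lower in Tfh5 against TfhA, with 3 uncalled. For this list and those below, the shares over all tested genes were 27.4% higher and 30.1% lower. Soat1, which makes cholesteryl esters for storage, was 2.14-fold higher (124 CPM in Tfh5, 57.8 CPM in TfhA; adjusted p = 3.47e-09), and Lipa, the lysosomal lipase that splits them, was 2.56-fold higher (137 CPM in Tfh5, 53.6 CPM in TfhA; adjusted p = 1.8e-12). The related sterol carriers Gramd1a and Gramd1b moved in opposite directions: Gramd1a was 2.68-fold higher at 332 CPM in Tfh5 against 124 CPM in TfhA (adjusted p = 2.28e-11), and Gramd1b was 4.25-fold lower at 40.2 CPM in Tfh5 against 171 CPM in TfhA (adjusted p = 6.38e-15). Of 9 tested genes of the LXR and oxysterol list, 4 were higher, 0 were lower and 5 did not pass, with Smpdl3a, known as an LXR target in human macrophages, 3.08-fold higher (91.1 CPM in Tfh5, 29.5 CPM in TfhA; adjusted p = 1.41e-10). Of 9 tested genes of fatty acid oxidation, 5 were higher, 1 was lower and 3 did not pass. Cpt1a, the gate of fatty acid entry into mitochondria, was 1.85-fold higher (78.1 CPM in Tfh5, 42.1 CPM in TfhA; adjusted p = 2.23e-07), and Acadl, a dehydrogenase of the same route, 1.79-fold lower (68.7 CPM in Tfh5, 122 CPM in TfhA; adjusted p = 3.67e-07). The list of 24 other fatty acid genes had 5 higher, 8 lower and 11 not passed, near the shares over all tested genes. Against Th1, the LXR and oxysterol list had 4 higher, 3 lower and 2 not passed in Tfh5. The oxidation list had 3 higher, 2 lower and 4 not passed there. Over all tested genes 31.5% were higher and 33% lower in Tfh5 against Th1.

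**Figure D4:**
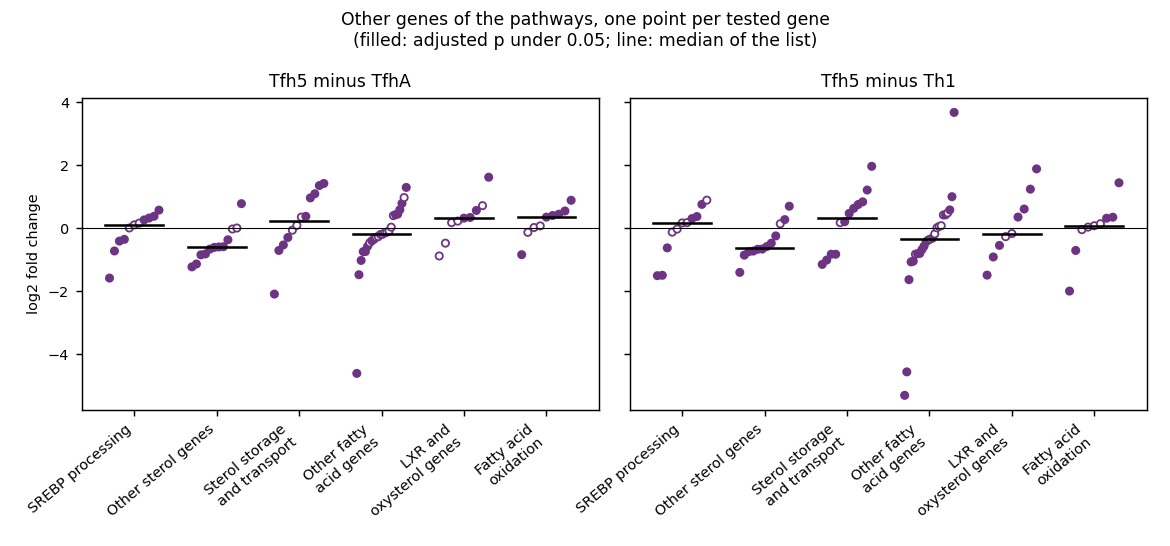
Log2 differences of the tested genes of the 6 other lists, 1 point per gene, for Tfh5 minus TfhA (left) and Tfh5 minus Th1 (right); filled points passed the adjusted p of 0.05 and the line is the median of the list. In Tfh5 minus TfhA the median is -0.60 for the further sterol genes, 0.35 for fatty acid oxidation and 0.32 for the LXR and oxysterol list. In Tfh5 minus Th1 it is -0.62 for the further sterol genes, 0.08 for fatty acid oxidation and -0.17 for the LXR and oxysterol list.

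Several other measures are given beside the lower synthesis genes of Tfh5, and not all of them followed the same order of groups. The summed level of 20 cell cycle genes was 2940 to 3792 CPM in Tfh5, 7613 to 8187 CPM in TfhA and 4958 to 5779 CPM in Th1. All 20 were lower in Tfh5 than in TfhA, against 30.1% of all tested genes. Against Th1, 19 were lower in Tfh5 and 17 were higher in TfhA, beside 33% and 23.2% of all tested genes. Mitochondrially encoded genes took 8.03 ± 0.594% of counts in Tfh5, against 5.82 ± 1.30% in TfhA and 5.91 ± 0.871% in Th1. A list of 10 myeloid genes summed to 10.5 to 14.3 CPM in Tfh5, 64.9 to 122 CPM in TfhA and 237 to 300.2 CPM in Th1. Cd74 and H2-Ab1 led it, both of the MHC class II pathway. Of the 10, 8 were under 1 CPM in Tfh5, 5 in TfhA and 8 in Th1. Lyz2 and Adgre1 were without a count in Tfh5 and TfhA. All 4 tested genes of the list were at least 2-fold lower in Tfh5 than in TfhA, against 13.1% of all tested genes. The B cell genes summed to 191 to 233 CPM in Tfh5, 77.6 to 97.9 CPM in TfhA and 64.3 to 75.2 CPM in Th1. Ighm led this sum of 7 genes, with means of 211 CPM in Tfh5, 65.7 CPM in TfhA and 41.1 CPM in Th1. Of the 7, 6 were under 1 CPM in Tfh5, 1 in TfhA and 5 in Th1. The 6 tested ones gave 4 lower, 1 higher and 1 not passed in Tfh5 against TfhA. Over all tested genes 30.1% were lower and 27.4% higher there. Ebf1 averaged 0.525 CPM in Tfh5, 17.2 CPM in TfhA and 29.2 CPM in Th1. Trdc, the constant gene of the δ chain, ran from 6.57 to 14.4 CPM in Tfh5, 32.7 to 79.2 CPM in TfhA and 4.005 to 7.83 CPM in Th1. The sum of 7 genes of CD8 T and NK cells overlapped between the groups (66.7 to 113 CPM in Tfh5, 64.2 to 94.7 CPM in TfhA and 60.5 to 101 CPM in Th1), but its members moved apart. Klrk1 averaged 0.915 CPM in Tfh5, 23.1 CPM in TfhA and 40.9 CPM in Th1, and Klrd1 averaged 73.3 CPM in Tfh5, 40.2 CPM in TfhA and 16.6 CPM in Th1. Of the 4 tested genes of that list, 2 were lower, 1 was higher and 1 did not pass in Tfh5 against TfhA. The part of these measures in the differences of the synthesis genes was not tested.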

How the data were processed

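RNA was measured by sequencing in 14 libraries, and the authors deposited whole-number read counts per gene. Per the submitters' processing notes the tools were STAR 2.7.2b and featureCounts 1.6.4 and the build was mm10. The sources used here give no annotation, strand setting or handling of reads that fit several genes. The deposited counts of each library in the table of all libraries were identical to those in its own file (14 of 14).

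From these counts, edgeR 4.0.16 (R 4.3.3) was used with filterByExpr, TMM scaling and 1 quasi-likelihood fit of all 14 libraries with group means; p-values were Benjamini-Hochberg adjusted over 13075 genes. The biological coefficient of variation was 14.2%. Replicates of a group differed by more than counting noise: the chi-square per degree of freedom over genes with at least 10 counts was 4.15 to 30.6 in 26 pairs. Symbols were found for 25275 of 27179 genes, and exon lengths are the union of exons. The test was checked on simulated counts with the same spread for every gene and few changed genes, all in Tfh5. In these data 57.5% of tested genes were called in Tfh5 against TfhA, a setting that the check does not cover. Summed and per-kilobase levels have no test.

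The 35 genes and all other lists were chosen with earlier results of these data known. Values per library are given for the members of each role with the largest differences of Tfh5 and for those that moved against their role. Of the other lists, at most 3 called genes per list and direction, with at least 5 CPM, could be named. Some genes the rule would take are not reported here. Alternatives were DESeq2 1.42.0, other size factors, no filter, 2 groups alone, a replicate block, a 2-fold minimum and leaving out each library.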

Additional observations from a re-analysis of the deposited data

Results flagged for a closer look

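In 10 of 105 sets of replicates of the 35 genes, 1 library stood apart from the rest of its group by Dixon's criterion, where chance gives about 1 in 20. Th1 replicate 1 accounts for 6 of the 10. Scap was at 81.9 CPM there, against 60.3 to 66.0 CPM in the other Th1 libraries, and Mvk at 19.1 CPM against 11.02 to 12.6 CPM. Fdft1 was at 108 CPM against 90.2 to 93.8 CPM, and Lss at 44.4 CPM against 37.0 to 38.9 CPM. In the same library Sc5d was at 90.0 CPM against 117 to 123 CPM, and Abca1 at 31.2 CPM against 44.4 to 49.3 CPM. Th1 replicate 1 had the highest total of all libraries (16108059 counts) and the lowest mitochondrial share of the Th1 group (4.46%); their part in these levels was not tested.

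Sqle stood at 209 CPM in TfhA replicate 4, against 196 to 198 CPM in the other TfhA libraries, and Cyp51 at 287 CPM in TfhA replicate 5, against 302 to 304 CPM. Stard4 was at 51.1 CPM in Tfh5 replicate 2, against 38.5 to 40.5 CPM in the other Tfh5 libraries. Fads1 was at 35.1 CPM in Tfh5 replicate 1, against 45.3 to 47.7 CPM.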

How the results depend on the processing

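Each of the 105 gene comparisons (35 genes, 3 contrasts) was recomputed under 21 other settings. Of these, 82 kept their call and direction throughout, 9 called ones lost the call somewhere, 6 uncalled ones passed somewhere, and 0 called ones changed sign. Asking also for a 2-fold difference left 12 of the 35 genes in Tfh5 against TfhA (10 lower, 2 higher). It left 2 in TfhA against Th1 (2 lower, 0 higher) and 11 in Tfh5 against Th1 (9 lower, 2 higher). Of the 77 other pathway genes tested, 12 (7 lower, 5 higher), 7 (5 lower, 2 higher) and 19 (12 lower, 7 higher) were left in these comparisons. The shares over all tested genes were 13.1% lower and 10.6% higher in Tfh5 against TfhA. They were 8.29% and 5.37% in TfhA against Th1, and 15.3% and 12.6% in Tfh5 against Th1. When each library was left out in turn, the genes called were 26 to 30 in Tfh5 against TfhA, 13 to 16 in TfhA against Th1 and 23 to 26 in Tfh5 against Th1.

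Without the most abundant gene of a role, the log2 ratio of the mevalonate sums was -1.17 in Tfh5 over TfhA, -0.38 in TfhA over Th1 and -1.55 in Tfh5 over Th1. That of the sterol sums was -0.53 in Tfh5 over TfhA and 0.18 in TfhA over Th1 (0.34 with CPM by library total). That of the fatty acid sums was -0.023 in TfhA over Th1 and -0.85 in Tfh5 over Th1.

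Changes of sign were all in log2 differences near 0 that passed no test. Scap in Tfh5 against TfhA was -0.22 to 0.013 without single libraries. In TfhA against Th1, Insig1 was -0.012 with DESeq2 and with RLE factors, -0.025 with upper-quartile factors, -0.032 with no filter, -0.0199 with 2 groups alone, -0.022 with the replicate block and -0.083 to 0.0704 without single libraries. Scap was -0.00884 with upper-quartile factors, -0.017 with no filter, -0.00427 with 2 groups alone, -0.012 with the block and -0.11 to 0.11 without single libraries. With library totals alone, Ebp was 0.047 and Stard4 0.0299, and Ebp was -0.087 to 0.059 without single libraries. Acly was -0.00569 with no filter and -0.015 to 0.075 without single libraries, and Fads1 -0.056 to 0.099. Abca1 in Tfh5 against Th1 was 0.00167 with library totals, 0.00329 with 2 groups alone and -0.13 to 0.022 without single libraries. The cause was not tested.

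Replicate numbers have no stated meaning, and deviations of same-numbered libraries correlated by -0.05 to 0.16, so the numbers were not taken to pair libraries. With the replicate block 27, 15 and 24 of the 35 genes were called in Tfh5 against TfhA, TfhA against Th1 and Tfh5 against Th1. No library size factor moved the median of all genes by more than 0.1 on the log2 scale. Depth limits the genes with few counts, of which Idi1 and Mylip were the lowest.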
